A study of Homo sapiens with 12 samples.

Results

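The mitochondrial ribosomal protein genes are the nuclear genes named MRPL (large subunit) or MRPS (small subunit) followed by a number. Members were all genes with such a name that had at least 10 counts in at least 3 samples, which gave 78 of 32077 genes, 49 for the large and 29 for the small subunit. Poly(A)-selected RNA was sequenced from PC3 and DU145 cells, human prostate cancer lines whose genotype is labelled wild type, after 48 h with 2.5 µM pentamidine or with vehicle (3 samples in each of 4 groups). Pentamidine is an antiprotozoal diamidine, and the question addressed here was how transcripts of the mitochondrial translation apparatus changed under it in each line. Between 13514195 and 15131436 reads were counted for each sample. The replicates carry only a number in the labels, which do not say whether they came from separate cultures. The study's legends speak of independent experiments for whole figures and not for these libraries in particular, so the p-values measure the spread between these samples, which may be technical.

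Mitochondrial ribosomes translate the few mRNAs that the mitochondrial genome encodes, all for subunits of the respiratory chain and ATP synthase. Their rRNAs come from the mitochondrial genome, whereas every ribosomal protein is encoded in the nucleus, made in the cytosol and imported. The large subunit holds the peptidyl transferase centre, the stalk that recruits translation factors and the exit tunnel that faces the inner membrane, and the small subunit holds the decoding centre. Proteins whose number matches a bacterial ribosomal protein are mostly its counterparts, and those with higher numbers are mostly additions found only in mitochondria.

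The promoter sequences of 6 members are printed here because these genes stand for the patterns described further on. MRPL20 and MRPL44 were lower after pentamidine in both lines, MRPS10 and MRPS15 were higher in both, MRPS34 moved in opposite directions, and MRPS26 had the smallest p-value for a difference between the lines. Each run is the 150 bases just upstream of a RefSeq transcription start (GRCh38.p14), written 5′ to 3′ on the strand of the gene. Capitals mark a match to CCGGAAG, the core of the motif bound by ETS factors, or to its reverse complement. The windows lie at chr1:1407294-1407443 (minus strand) for MRPL20, chr2:223957313-223957462 (plus strand) for MRPL44, chr6:42217862-42218011 (minus strand) for MRPS10, chr1:36464385-36464534 (minus strand) for MRPS15, chr16:1773135-1773284 (minus strand) for MRPS34 and chr20:3045902-3046051 (plus strand) for MRPS26.
MRPL20: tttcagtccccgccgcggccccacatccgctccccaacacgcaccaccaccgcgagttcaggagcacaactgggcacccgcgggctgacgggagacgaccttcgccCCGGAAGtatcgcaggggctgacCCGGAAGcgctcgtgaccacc
MRPL44: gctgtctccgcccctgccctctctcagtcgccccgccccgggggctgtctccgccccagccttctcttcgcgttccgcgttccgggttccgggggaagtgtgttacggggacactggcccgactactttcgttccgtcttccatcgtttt
MRPS10: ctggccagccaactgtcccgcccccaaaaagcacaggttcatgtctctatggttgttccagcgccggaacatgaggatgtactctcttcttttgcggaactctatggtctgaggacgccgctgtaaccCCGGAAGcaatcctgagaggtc
MRPS15: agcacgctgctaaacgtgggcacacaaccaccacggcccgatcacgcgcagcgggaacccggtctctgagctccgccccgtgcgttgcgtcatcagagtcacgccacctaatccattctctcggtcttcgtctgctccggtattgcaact
MRPS34: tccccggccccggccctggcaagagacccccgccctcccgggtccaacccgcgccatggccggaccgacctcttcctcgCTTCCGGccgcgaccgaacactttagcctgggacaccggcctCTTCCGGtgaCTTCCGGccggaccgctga
MRPS26: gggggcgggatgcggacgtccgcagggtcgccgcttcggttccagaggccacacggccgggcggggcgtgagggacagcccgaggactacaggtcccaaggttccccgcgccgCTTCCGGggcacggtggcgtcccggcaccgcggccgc

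MRPL20 held 2 such matches, MRPS34 held 3, MRPS10 and MRPS26 held 1 each, and the windows of MRPL44 and MRPS15 held none. Promoter windows of 250 bases before to 50 after the start were available for 69 of the 78 members, 85 windows in all. CCGGAAG on either strand was present in 38.82% of the members' windows, against 10.26% of all 35116 windows and 17.54% of those of genes tested in PC3. AAGATGGCG, the core of the YY1 motif, was present in 15.29% against 1.748% and 3.551%, and GCGCATGC, the core of the NRF1 motif, in 7.059% against 3.053% and 5.008%. CCGGAAG and AAGATGGCG can overlap in a promoter, since the end of the former is the start of the latter. Of the members that were lower in a line and higher in none, 31.43% of 35 windows (26 members) held CCGGAAG. For those higher in a line and lower in none the share was 22.22% of 9 windows (8 members). Of those called in neither line 47.5% of 40 windows (34 members) held it. Windows of the same member are not independent, and no difference between these shares was tested.

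Some measurements bear on the labels and the libraries before any result is read. KRT8, an epithelial keratin, was at 16.1 to 21.4 CPM (TMM-normalised counts per 1000000 reads) in the 6 libraries labelled PC3 and at 1814 to 2791 in the 6 labelled DU145. EPCAM, an epithelial adhesion molecule, did not exceed 0.149 CPM in any library, and CDH1 and KRT19, further epithelial genes looked up after the first values were seen, did not exceed 0.678 and 0.214. CTNNA1, also looked up then, was at 430.5 to 576.5 CPM in the libraries labelled PC3 and at 395.1 to 425.5 in those labelled DU145, although it is known to carry a deletion in PC3. A count per gene does not show which exons were read, so CTNNA1 does not settle the identity of the cells. KRT18 was at 143.9 to 208.1 CPM and at 684.4 to 939.5, and COL1A1, of fibroblasts, at 0.202 to 0.777 and at 1.70 to 2.98. Apart from KRT8 and KRT18, the epithelial markers were thus near 0 in both lines, which goes against the labelled cell type. PC3 and DU145 stand below for the libraries so labelled. KLK3, the prostate-specific antigen, stayed at or below 0.147 CPM, and PTPRC and PECAM1, of leukocytes and endothelium, at or below 0.677. PC3 vehicle replicate 1 stood apart from its group: the chi-square of its counts against the other 2, averaged over genes, was 5.975 and 7.305, where other replicate pairs gave 1.715 to 3.641, and it held the lowest of the 3 vehicle values in 65 of the 78 members. Counts that turn on it are therefore given with and without it.

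In PC3 cells the members shifted slightly downward after pentamidine. Of the 77 members tested (MRPL23 had too few reads), 18 were lower (23.38%) and 5 were higher (6.494%) at an adjusted p below 0.05. Of all 13861 genes tested, 21.7% were lower and 21.7% were higher (43.4% in all). The vehicle and pentamidine samples did not overlap for 28 of the 77, against 52.1% of all genes. Of the large subunit, 14 of 48 genes were lower and 2 higher, with a median log2 fold change of -0.145, and of the small subunit 4 of 29 were lower and 3 higher, with a median of -0.061, beside a median of 0.0046 over all genes. The changes were small: fitted folds ran from 0.7001 to 1.34 in the large subunit and from 0.731 to 1.39 in the small subunit, and no member passed the study's threshold of an absolute log2 fold change above 1, which 4.75% of all genes did. Without PC3 vehicle replicate 1, 35 members were lower and 4 were higher, 26 of the lower ones in the large (median -0.192) and 9 in the small subunit (median -0.105), while the share of all genes called was nearly the same (21.7% lower and 21.9% higher). Of the 18 members lower with all samples, 17 were among those 35, with MRPL42 the exception. Without PC3 vehicle replicate 3 the medians were -0.0821 and -0.0418.

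In DU145 cells 18 of 78 members were lower and 9 were higher, against 16.8% and 17.2% of the 14313 genes tested (34% in all). The groups did not overlap for 29 members, against 44% of all genes. The large subunit held 15 of the lower and 4 of the higher genes among its 49, with a median log2 fold change of -0.048. The small subunit held 3 lower and 5 higher genes among its 29, with a median of -0.0048 (0.0158 without DU145 vehicle replicate 2), and the median of all genes was 0.0085. Scaled by library size alone, 8 members were lower and 10 higher in this line (11.5% and 22.9% of all genes), with medians of 0.0015 and 0.045 for the large and small subunit, and the median of all genes was then 0.058. Without DU145 vehicle replicate 2, 12 were lower (15.1% of all genes), and without DU145 vehicle replicate 1, 5 were higher (14.5% of all genes). DESeq2 and a single fit of all samples each gave 10 lower (6.3% and 12.6% of all genes, DESeq2 without the count filter). No member passed the study's threshold here either, where 2.03% of all genes did. In bulk RNA a lower CPM cannot tell less of a transcript per cell from fewer cells that make it.

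**Figure D1:**
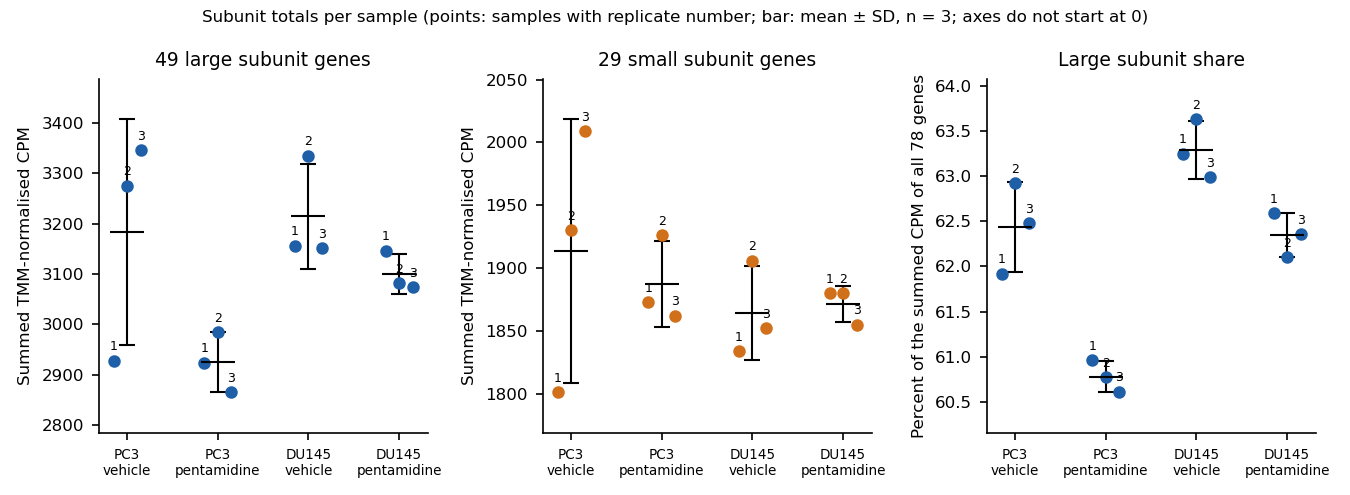
Summed TMM-normalised CPM of the large and small subunit genes and the large subunit's percent of the sum over all 78 members, per sample, for the 4 groups; points are samples with their replicate number, and bars are mean ± SD (n = 3). The large subunit's share lay lower in every pentamidine sample than in every vehicle sample of the same line, and PC3 vehicle replicate 1 had the lowest totals of its group.

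Summed over genes, the share of the large subunit was lower after pentamidine in both lines. The 49 large subunit genes summed to 2928, 3275 and 3346 CPM in PC3 vehicle samples and to 2924, 2984 and 2865 after pentamidine. The 29 small subunit genes summed to 1801, 1930 and 2009 and to 1873, 1926 and 1862. Both pairs of groups overlapped, and PC3 vehicle replicate 1 was the lowest vehicle sample in each. In DU145 the large subunit summed to 3156, 3335 and 3151 CPM with vehicle and to 3146, 3081 and 3074 with pentamidine, and the small subunit to 1834, 1906 and 1852 and to 1880, 1880 and 1855. The share of the large subunit in the summed level of all members, which no scaling between samples can alter, was 61.92, 62.92 and 62.48% in PC3 vehicle samples and 60.96, 60.77 and 60.61% after pentamidine (62.4 ± 0.50 and 60.8 ± 0.18, mean ± SD, n = 3). In DU145 it was 63.25, 63.63 and 62.99% and then 62.59, 62.1 and 62.36% (63.3 ± 0.32 and 62.3 ± 0.25, n = 3). The groups did not overlap in either line, including PC3 vehicle replicate 1. These sums weigh the most abundant members most and are given as a description.

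Of the large subunit's members with a bacterial number, 8 of 27 were lower and 1 higher in PC3 (median -0.15, with 21.7% of all genes each way), and 11 of 28 were lower and 3 higher in DU145 (median -0.079, with 16.8% of all genes lower and 17.2% higher). Of those with a higher number, 6 of 21 were lower and 1 higher in PC3 (median -0.10), and 4 of 21 were lower and 1 higher in DU145 (median -0.0035), which is 19.05% lower, near the share of all genes. MRPS30 and MRPS18A carry small subunit names, but structures place both proteins in the large subunit. MRPS30 was lower in DU145 (log2 fold change -0.13, SE 0.043, adjusted p = 0.0156) and not called in PC3 (-0.08, SE 0.070, adjusted p = 0.397), and MRPS18A was called in neither line (-0.14 in PC3, adjusted p = 0.196; 0.0030 in DU145, adjusted p = 0.982), but RSPH9 on the other strand overlaps 47.04% of its exon length.

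**Figure D2:**
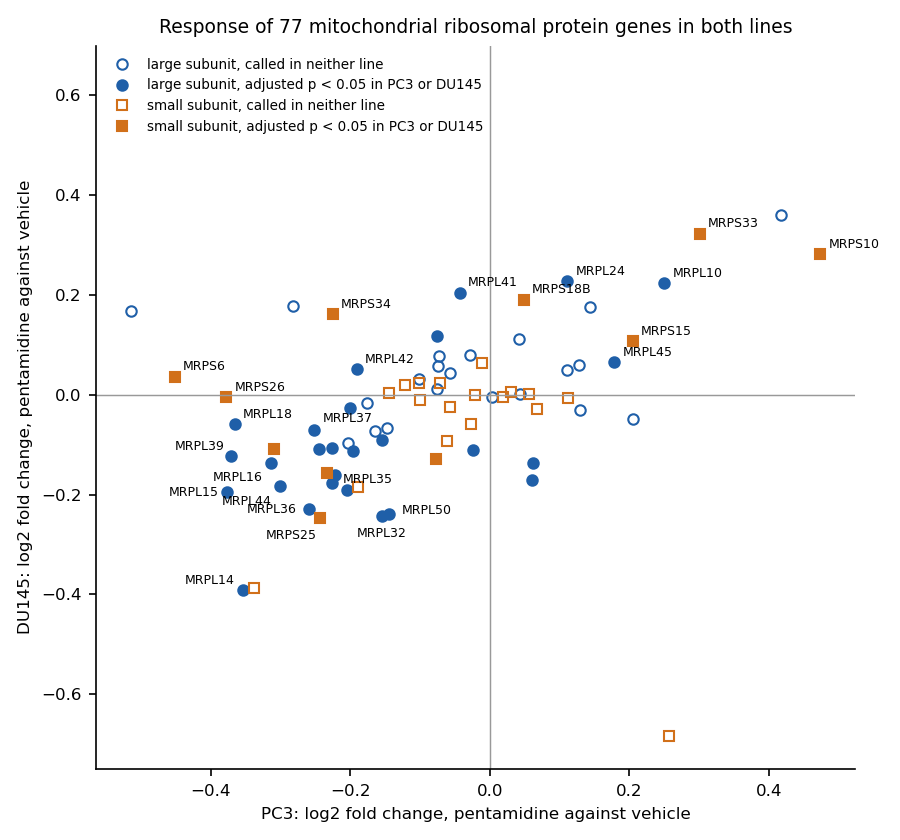
Log2 fold change after pentamidine in PC3 (x axis) and DU145 (y axis) for the 77 members tested in both lines; circles are large and squares small subunit genes, filled where the adjusted p was below 0.05 in a line. MRPS10, MRPS33 and MRPL10 lie at the upper right, MRPL14 at the lower left, and MRPS6, MRPS26 and MRPL18 lie far to the left near a DU145 change of 0.

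Taking the lines side by side, 7 members were lower in both (MRPL14, MRPL15, MRPL16, MRPL20, MRPL35, MRPL44 and MRPL49), all of the large subunit, and 4 were higher in both (MRPL10, MRPS10, MRPS15 and MRPS33). That is 9.09% and 5.19% of the members tested in both lines, where 9.62% and 9.94% of all 13125 genes tested in both were lower or higher in both. The sign of the log2 fold change was the same in both lines for 50 of 77 members (64.94%), and for 68.13% of all genes. Across members the 2 responses had a Pearson r of 0.41 and a Spearman rho of 0.48 (77 genes, as a description, since genes share their libraries and are not independent).

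The members lower in both lines were led by MRPL14, the counterpart of a conserved bacterial protein that in mitochondria also binds the assembly factor MALSU1 (chr6:44113454-44127457, minus strand, GRCh38). Its level was 48.0, 57.6 and 64.4 CPM in PC3 vehicle samples and 41.7, 47.6 and 43.2 after pentamidine. In DU145 it was 61.8, 66.3 and 60.9 CPM with vehicle and 50.5, 47.1 and 46.0 with pentamidine. The groups did not overlap in either line. The log2 fold change was -0.35 in PC3 (SE 0.093, adjusted p = 0.00532), -0.47 without PC3 vehicle replicate 1, and -0.39 in DU145 (SE 0.056, adjusted p = 1.1e-07). MRPL15, a conserved core protein of the large subunit, was the member with the highest level per kb of exon (128 CPM per kb in vehicle samples) and fell from 113, 122 and 119 CPM to 88.7, 92.6 and 90.6 in PC3, and from 183, 196 and 179 to 163, 160 and 162 in DU145. Its log2 fold changes were -0.38 (SE 0.055, adjusted p = 3.2e-05) and -0.20 (SE 0.038, adjusted p = 4.1e-05), again with no overlap between groups.

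MRPL44, a protein with a ribonuclease III-like fold near the tunnel exit, in which recessive variants cause cardiomyopathy, was at 38.1, 44.8 and 41.2 CPM in PC3 vehicle samples and at 34.7, 32.8 and 33.1 after pentamidine. In DU145 it was at 44.4, 43.8 and 45.3 and then at 40.1, 39.1 and 38.1. All 3 pentamidine samples of each line lay below all 3 vehicle samples, with log2 fold changes of -0.30 (SE 0.077, adjusted p = 0.00451) and -0.18 (SE 0.061, adjusted p = 0.0156). An antisense gene overlaps 12.87% of its exon length, and the counting is not known to have used strand. MRPL16, whose bacterial counterpart lies near the peptidyl transferase centre, had log2 fold changes of -0.31 (adjusted p = 0.00059) and -0.14 (adjusted p = 0.0103), and MRPL35 of -0.23 (adjusted p = 0.0078) and -0.18 (adjusted p = 0.0034). MRPL20, whose bacterial counterpart acts early in assembly of the subunit, and MRPL49, a mitochondria-specific protein, fell by 0.24 and 0.20 on the log2 scale in PC3 and by 0.11 in DU145. With library size alone, MRPL16, MRPL20, MRPL44 and MRPL49 were no longer called in DU145. Other genes overlap 15.49% of the exon length of MRPL20 and 12.18% of that of MRPL49.

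Of the 4 members that rose in both lines, 3 belong to the small subunit. MRPS10, the counterpart of a bacterial protein of the subunit's head (chr6:42206801-42217865, minus strand), was at 88.2, 106 and 93.3 CPM in PC3 vehicle samples and at 136, 132 and 130 after pentamidine. In DU145 it was at 65.04, 74.2 and 68.4 CPM and then at 84.3, 87.8 and 79.7. It gave the largest called increase among members in PC3, with log2 fold changes of 0.47 (SE 0.066, adjusted p = 1.7e-05) there and 0.28 (SE 0.051, adjusted p = 1.2e-05) in DU145, and no overlap between groups. MRPS33, a mitochondria-specific protein of the small subunit, rose from 43.8, 44.9 and 53.3 CPM to 56.2, 62.7 and 55.3 in PC3 (log2 fold change 0.30, SE 0.081, adjusted p = 0.00618). In DU145 it rose from 28.3, 28.4 and 26.8 CPM to 32.7, 35.3 and 35.97 (log2 fold change 0.32, SE 0.070, adjusted p = 0.00024).

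MRPL10, which forms the base of the stalk, was at 67.6, 72.3 and 74.9 CPM in PC3 vehicle samples against 84.9, 87.9 and 81.8 after pentamidine. In DU145 it was at 57.3, 58.4 and 58.5 CPM against 63.4, 68.2 and 71.1. The groups were separate in both lines, with log2 fold changes of 0.25 (SE 0.061, adjusted p = 0.00321) and 0.22 (SE 0.053, adjusted p = 0.0006). MRPS15, whose bacterial counterpart binds rRNA early in assembly, rose less (0.20, adjusted p = 0.0106, and 0.11, adjusted p = 0.037), its DU145 groups overlapped, and its DU145 call was lost under 7 of 14 alternatives and its PC3 call under 1. Of the other stalk proteins, MRPL11 was higher in DU145 (log2 fold change 0.12, adjusted p = 0.0132) and not called in PC3 (-0.08, adjusted p = 0.422), and MRPL54, MRPL53 and MRPL12 were called in neither line.

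Further members passed the test in DU145 or PC3. MRPL45, the protein that anchors the ribosome to the inner membrane, was higher in PC3 (log2 fold change 0.18, SE 0.064, adjusted p = 0.0326), but not without PC3 vehicle replicate 1 (0.12, adjusted p = 0.118) and at an adjusted p of 0.141 without PC3 pentamidine replicate 1. In DU145 MRPL24, a protein of the tunnel exit, rose by 0.23 on the log2 scale (SE 0.042, adjusted p = 1.6e-05), MRPS18B, which shares its bacterial ancestor with MRPS18A and MRPS18C, by 0.19 (SE 0.044, adjusted p = 0.00052) and MRPL41, a mitochondria-specific protein, by 0.20 (SE 0.076, adjusted p = 0.0324). MRPL41 rested on DU145 vehicle replicate 1, which had 26.3 CPM where the other vehicle samples had 32.3 and 36.9 and the pentamidine samples 35.8 to 37.6, and without it the log2 fold change was 0.082 (adjusted p = 0.446). MRPS25 (-0.25, adjusted p = 5.2e-05), MRPL32 (-0.24, adjusted p = 0.00026), MRPL50 (-0.24, adjusted p = 0.01) and MRPL36 (-0.23, adjusted p = 0.00086) fell in DU145. MRPL32 is the protein whose maturation by an inner membrane protease precedes ribosome assembly. The same genes had log2 values of -0.24, -0.15, -0.14 and -0.26 in PC3, none past the test there (adjusted p 0.0525 to 0.195), and NR2C2 on the other strand overlaps 22.24% of the exon length of MRPS25.

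The response differed between the lines for 7 members by the interaction test, in every case with the lower log2 fold change in PC3 (of the 15226 genes tested, 20.4% differed, 10.3% with the lower value in PC3 and 10.2% with the higher). No member differed in the other direction by edgeR's test or by DESeq2, and at an unadjusted p below 0.05 edgeR gave 1 such member and 14 with the lower value in PC3. Without PC3 vehicle replicate 1, 14 members differed, all in the same direction, against 10.1% of all genes. Leaving out any of PC3 vehicle replicate 2, PC3 pentamidine replicate 3 and DU145 vehicle replicates 1 and 3 left 3 with the lower value in PC3. Of all genes, 8.07% to 9.51% had the lower value in PC3 in those fits. A member with the higher value in PC3 was called only without PC3 vehicle replicate 2 and without DU145 vehicle replicate 1, 1 in each case. MRPS34, a mitochondria-specific protein of the small subunit (chr16:1771890-1773155, minus strand), passed the test in opposite directions. It was at 135, 104 and 126 CPM in PC3 vehicle samples and at 103, 107 and 101 after pentamidine, where the groups overlapped. In DU145 it rose from 97.0, 112 and 111 CPM to 114, 123 and 120 without overlap. The log2 fold changes were -0.23 (SE 0.074, adjusted p = 0.0212) and 0.16 (SE 0.046, adjusted p = 0.00401), and their difference was -0.39 (SE 0.097, adjusted p = 0.00438). Its PC3 call was lost under 3 of 14 alternatives (adjusted p up to 0.086) and its DU145 call under 3 of 14 (up to 0.113). MRPS34 was the only member called in opposite directions, which 2.42% of all genes tested in both lines were.

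MRPS26, a further mitochondria-specific protein of the small subunit (chr20:3045945-3048254, plus strand), was at 97.9, 83.9 and 95.5 CPM in PC3 vehicle samples and at 69.0, 75.3 and 68.4 after pentamidine. In DU145 its groups overlapped, at 91.4, 96.0 and 87.1 and at 88.9, 90.1 and 93.6 CPM. The decrease in PC3 was -0.38 (SE 0.066, adjusted p = 0.0002), and the difference between the lines was -0.37 (SE 0.083, adjusted p = 0.00149). MRPL18, a protein of the large subunit's central protuberance, fell from 88.7, 104 and 108 to 78.4, 77.03 and 77.5 CPM in PC3 and was at 61.7, 61.1 and 56.6 and at 57.9, 58.3 and 55.3 CPM in DU145 (difference -0.31, SE 0.088, adjusted p = 0.0133). TCP1, which encodes a chaperonin subunit and starts 63 bases away on the other strand, was lower in both lines (log2 fold change -0.37, adjusted p = 2.1e-05, and -0.26, adjusted p = 1.5e-09).

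MRPS6 was at 11.7, 16.8 and 15.2 CPM in PC3 vehicle samples and at 10.6, 11.2 and 10.1 with pentamidine, and at 15.6, 16.5 and 15.2 and at 18.0, 15.4 and 15 in DU145. It had the largest difference of the 7 between the lines (-0.49, SE 0.16, adjusted p = 0.0353), and its counts were 149 to 259 reads per sample. MRPL37, the member with the highest CPM, fell from 247, 243 and 242 to 211, 201 and 202 CPM in PC3 and was at 197, 207 and 190 and at 182, 184 and 199 in DU145. MRPL42 and MRPL15 completed the 7, and the differences for MRPL37 (-0.18, adjusted p = 0.0397), MRPL42 (-0.24, adjusted p = 0.0443) and MRPL15 (-0.18, adjusted p = 0.0479) lay close to the threshold. Without PC3 vehicle replicate 1, MRPL42 had an adjusted p of 0.102 for the difference, and 6 of the 7 were still called. MRPL39, a tunnel exit protein related to threonyl-tRNA synthetase, was also among the 6 largest called decreases in PC3 (-0.37, SE 0.071, adjusted p = 0.00041) but missed the test of a difference (-0.25, adjusted p = 0.0514).

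**Figure D3:**
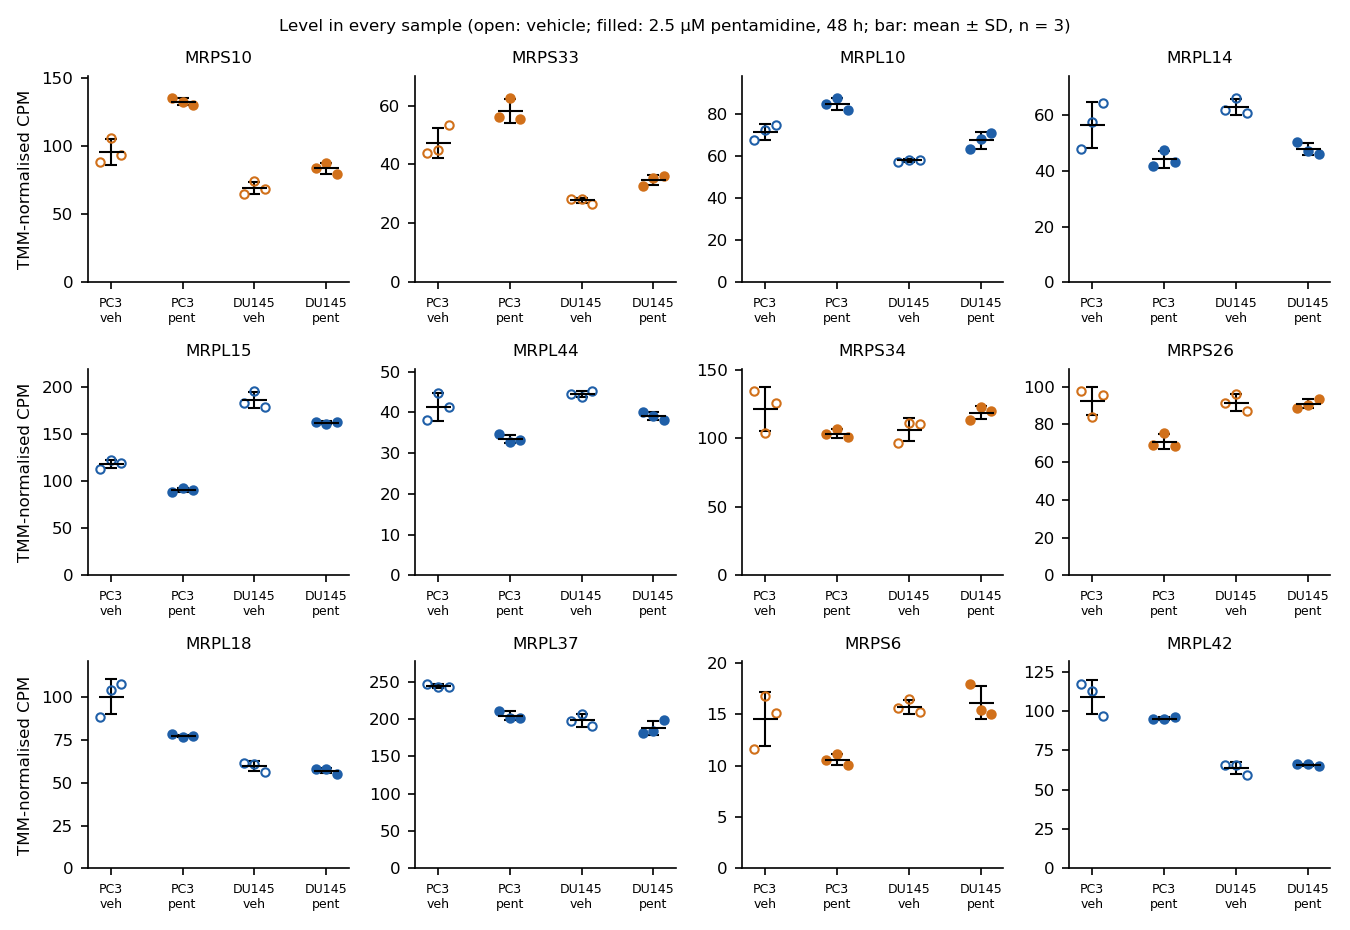
TMM-normalised CPM in every sample for 12 members, by line and treatment (open points vehicle, filled points pentamidine, bars mean ± SD, n = 3; axes start at 0; blue large subunit, orange small subunit). MRPS10, MRPS33 and MRPL10 lie higher and MRPL14, MRPL15 and MRPL44 lower after pentamidine in both lines, MRPS34 moves in opposite directions, and the remaining 5 are lower in PC3 while their DU145 groups overlap.

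Between untreated lines 57.69% of the members were called, more than the 29.87% in PC3 and 34.62% in DU145 after the drug. The same held for all genes (65.3% against 43.4% and 34%). Of 78 members, 26 were higher and 19 lower in vehicle-treated PC3 than in vehicle-treated DU145, where 31.5% and 33.8% of the 14394 genes tested were (65.3% in all). The groups did not overlap for 42 members, against 69.1% of all genes. Without PC3 vehicle replicate 1 the counts were 33 and 15 (31.9% and 33.8% of all genes), and scaled by library size alone they were 32 and 14 (37.1% and 29.5%). Past an absolute log2 difference of 1 lay 3 members, all lower in PC3 (MRPL23, MRPS21 and MRPS17), beside 19.2% of all genes. MRPL23 met the count rule for members only through its DU145 samples, so its lower level in PC3 was given by that choice. MRPS21 (chr1:150293720-150308979, plus strand), whose bacterial counterpart takes part in initiation, was at 23.0, 27.8 and 32.5 CPM in PC3 vehicle samples and at 74.2, 76.6 and 78.2 in those of DU145, a log2 difference of -1.49 (SE 0.092, adjusted p = 5.4e-10). MRPS17 was at 6.84, 8.15 and 10.3 against 15.9, 17.7 and 17.3 CPM (-1.04, SE 0.14, adjusted p = 4.5e-06), and other genes overlap 27% of its exon length. Neither gene was called after pentamidine in a line.

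MRPL23, a tunnel exit protein (chr11:1947278-1984522, plus strand), had 0, 1 and 1 counts in PC3 vehicle samples and 18, 16 and 20 in those of DU145. The sums of 2 and 54 counts give a ratio of 26.9, with an exact 95% interval of 7.1 to 228 that covers counting error only. Since its DU145 counts alone made it a member, the ratio describes this gene and is no result about the members. At these counts its transcript was close to undetected in PC3, and after pentamidine it had 1, 0 and 0 counts there and 25, 11 and 6 in DU145 (log2 fold change -0.38, SE 0.38, adjusted p = 0.472). MRPL16 (-0.93, adjusted p = 3e-10) and MRPS25 (-0.82, adjusted p = 1.3e-06) were the next lowest in PC3. Among the members higher in PC3, MRPL42 (0.75, adjusted p = 8.8e-08), MRPS33 (0.74, adjusted p = 7.6e-07), MRPL18 (0.72, adjusted p = 2.4e-07), MRPS18C (0.68, adjusted p = 0.0203) and MRPL2 (0.48, adjusted p = 6.7e-05) had the largest differences, and MRPS18C was at 3.28 to 7.96 CPM, with overlapping groups.

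For each member the median log2 difference of the tested genes within 5 Mb was taken, and 57 of 78 members, and 39 of the 45 called, had the sign of that median. The same share was not taken over all genes, so whether members differ from other genes in this was not tested. The Spearman rho between a member and its surroundings was 0.67, and the Pearson r without MRPL23 was 0.74 (a description, since neighbouring members share genes in their windows). Around MRPL16, 98 of 106 tested genes were lower in PC3, with a median of -0.49. The medians were -0.97 around MRPL36 (itself -0.73), 0.71 around MRPL18 (itself 0.72) and 0.69 around MRPS18C (itself 0.68). MRPS21 lay further out than its surroundings (-0.43), as did MRPL42 (0.17) and MRPS33 (0.41). Copy number was not measured here, and its part in these differences was not tested.

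**Figure D4:**
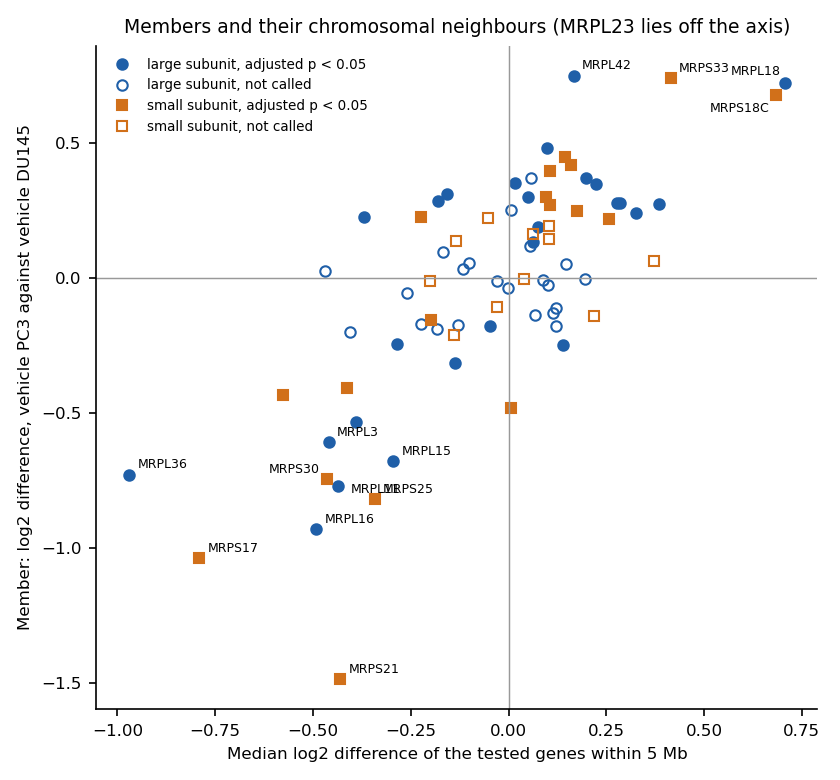
Log2 difference between vehicle-treated PC3 and vehicle-treated DU145 for each member (y axis) against the median difference of all tested genes within 5 Mb of it (x axis); circles are large and squares small subunit genes, filled where the adjusted p was below 0.05. Members low in PC3 lie mostly in regions whose genes were low in PC3, and MRPL23 (-4.59) is off the axis.

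Levels within the complex covered a wide range, although most of the proteins are present as single copies in a ribosome. Per kb of merged exon length, the highest members in vehicle samples were MRPL15 (128 CPM per kb), MRPS34 (104), MRPL37 (86.8), MRPS26 (81.6) and MRPL51 (75.7). By the length of the principal transcript MRPL15 ranked 4 and MRPL37 ranked 2, so this order depends on the length used. The lowest were MRPS18C (1.00), MRPL46 (0.901), MRPL38 (0.628), MRPS24 (0.378) and MRPL23 (0.223). Below 10 CPM in vehicle samples lay 8 members by their mean, and all but MRPL23 of these 8 share at least 10% of their exon length with another gene in GENCODE 29, as do 26 members in all. MRPL12, a stalk protein of which each ribosome carries several copies, was at 4.84 to 9.5 CPM with vehicle, and AC139530.2, a gene of the same strand, covers 68.19% of its exons. MRPL53 (45.24% shared), MRPL38 (41.11%), MRPS18C (40.2%), MRPS28 (35.77%), MRPS24 (23.19%, with URGCP-MRPS24) and MRPL46 (11.26%) were the others. How reads on shared exons were counted is not given in the sources used here. The levels and changes of these 7 genes are therefore uncertain, as are those of the rest of the 26, among them MRPL51 (31.33% shared). Among the 52 members with less than 10% shared, 13 were lower and 5 higher in PC3 and 12 lower and 9 higher in DU145, a choice made after the values were seen. Of those tested, that is 25.49% and 9.804% in PC3, where 21.7% of all genes were lower and 21.7% higher. In DU145 it is 23.08% and 17.31%, where 16.8% of all genes were lower and 17.2% higher.

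**Figure D5:**
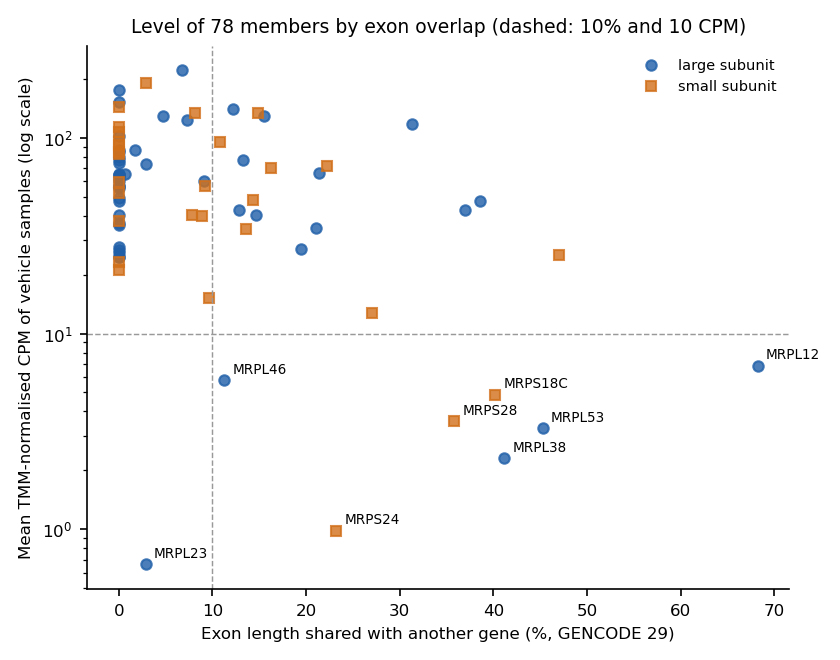
Mean TMM-normalised CPM of each member in the 6 vehicle samples (y axis, log scale) against the percent of its exon length that other genes share (x axis); dashed lines mark 10% and 10 CPM. Below 10 CPM lie 8 members, 7 of them right of the 10% line and MRPL23 left of it.

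A gene on the opposite strand starts within 1 kb upstream for 21 of 78 members (26.92%), against 16.66% of the genes tested in PC3 and 16.92% of its protein-coding genes. MRPL46 and MRPS11, of the large and the small subunit, face each other with starts 34 bases apart, and MRPL36 and MRPL47 face the respiratory complex I genes NDUFS6 and NDUFB5 at 34 and 36 bases. The pairs named next, like TCP1 and MRPL11 above, were chosen after their values were seen. In DU145 MRPL47 fell (log2 fold change -0.14, adjusted p = 0.0478) and NDUFB5 rose (0.29, adjusted p = 6.6e-05), but the MRPL47 call was lost under 9 of 14 alternatives, and in PC3 SKA3, a kinetochore gene beside MRPL57, fell by 0.64 where MRPL57 fell by 0.23. Processed pseudogenes with their own entry held at most 6.23% of the counts of their parent, for MRPS31, and 4.96% for MRPL45.

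Of the mitochondrial ribosomal proteins that carry other names, DAP3, PTCD3, AURKAIP1, CHCHD1 and GADD45GIP1 were all uncalled in PC3 (log2 fold changes -0.087 to 0.11). In DU145 DAP3, a GTP-binding protein of the small subunit, was lower (-0.11, SE 0.037, adjusted p = 0.0145), and GADD45GIP1, a large subunit protein, was higher (0.34, SE 0.057, adjusted p = 2.7e-06). GADD45GIP1 was at 122.5, 76.0 and 96.2 CPM in PC3 vehicle samples, so its PC3 value varied widely between replicates. Both genes differed between the lines (DAP3 0.22, adjusted p = 0.0127; GADD45GIP1 -0.42, adjusted p = 0.0433).

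Of 28 assembly factors, 4 were higher and 9 lower in PC3 (median -0.012) and 1 higher and 2 lower in DU145 (median 0.028), which is 46.43% and 10.71% called, against 43.4% and 34% of all genes. FASTKD2, an RNA-binding protein of the granules in which mitochondrial rRNA is handled, was lower in both lines, by 0.23 and 0.39 on the log2 scale (adjusted p = 0.0098 and 2.3e-08). Over both lines together, where 37.9% of all genes were called (19% higher and 18.9% lower), the largest decreases called were those of FASTKD2 (-0.31, adjusted p = 0.00012) and MRM3, an rRNA methyltransferase (-0.23, adjusted p = 0.00765), and the largest increases those of YBEY, an endoribonuclease (0.32, adjusted p = 0.0157), and MTERF4 (0.22, adjusted p = 0.0154). MALSU1, the factor that binds MRPL14 and looked up after its values were seen, was lower in PC3 (-0.21, adjusted p = 0.0427) and not called in DU145 (-0.040, adjusted p = 0.69). Of 14 translation factors 2 were higher and 1 lower in PC3, and 2 were higher and 2 lower in DU145. That is 21.43% and 28.57% called, below the 43.4% and 34% of all genes. Over both lines the called extremes were C12orf65, a peptide release factor (0.21, adjusted p = 0.00245), MTIF3, an initiation factor (0.20, adjusted p = 0.0235), GFM1, the elongation factor of translocation (-0.15, adjusted p = 0.00827), and MTRF1 (-0.25, adjusted p = 0.0357).

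The members' small changes stood beside large ones in the counts of the RNAs that these ribosomes contain and translate. All 13 mitochondria-encoded mRNAs fell in both lines, with median log2 fold changes of -4.12 in PC3 and -4.84 in DU145. MT-CO1, a subunit of cytochrome c oxidase, went from 13200, 12600 and 13070 CPM to 816, 820 and 803 in PC3. Counts of both mitochondrial rRNAs, which poly(A) selection captures through their short tails, rose. On the log2 scale MT-RNR1 rose by 3.15 in PC3 and 2.32 in DU145, and MT-RNR2 by 2.45 and 1.36. Such counts cannot tell more rRNA from more of it being captured. The study reports that qPCR found both rRNAs reduced, and its authors presume that sequencing errors lie behind the rise. Leaving the mitochondria-encoded genes out of the normalisation left 18 members lower and 5 higher in PC3 and 18 lower and 9 higher in DU145, the same genes in each case. Of the 79 proteins of the cytosolic ribosome, 67 were higher and the other 12 not called in PC3 (median 0.36), and 68 were higher and 1 lower in DU145 (median 0.23). Over the 77 and 78 members tested, the medians were -0.077 and -0.013.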

How the data were processed

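Poly(A)-enriched RNA of 12 samples was sequenced as paired reads. According to the study's methods and the submitters' processing notes, reads were aligned with HISAT2 (2.1.0) to GRCh38 and tested with DESeq (1.18.1). The counting program and its use of strand are not given in the sources used here. The authors deposited counts, whole reads per gene with no normalisation. A second deposited table, named for FPKM, held CPM for 99.99% of its values (within 1e-4) and was not used, and the tables of the authors' own comparisons (fold changes and p-values) were not used. Of the table's lines, 44 without an identifier were dropped, and of entries with the same name and identical counts only the first was kept, leaving 32077 genes. No column belonged to other samples.

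Samples were grouped by their labels. Counts were scaled by TMM, filtered by filterByExpr (minimum count 10) and tested by the quasi-likelihood method of edgeR (4.0.16, under R 4.3.3), with p-values adjusted over all genes by Benjamini and Hochberg. Each line was fitted with its own 6 samples, untreated lines with the 6 vehicle samples, and the interaction with all 12. A gene was called at an adjusted p below 0.05. Standard errors (SE) are the log2 fold change divided by the square root of F. Levels are TMM-normalised CPM over all 12 samples. Exon lengths and overlaps came from GENCODE 29 and promoters from RefSeq (GRCh38.p14). The tests were checked before use on simulated counts whose planted changes were larger than any member's change after pentamidine. That check does not cover changes as small as those of the members. Alternatives were other scalings and filters, DESeq2 (1.42.0), a stricter threshold, a replicate block, one fit of all samples and each sample left out. Genes were named by a rule: per line the 6 largest called increases and decreases, the 8 with the largest mean change among members called alike in both lines and those called in opposite directions, the 10 smallest p-values of the interaction, the 5 extremes each way between untreated lines and per kb, MRPS30, MRPS18A and members with other names, the 2 called extremes each way of related lists over both lines, and members past the study's threshold. The members, lists and rule were chosen with earlier results of these data known. Some marker genes are not reported here.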

Additional observations from a re-analysis of the deposited data

Results flagged for a closer look

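For 7 members the log2 fold change after pentamidine differed between the lines by edgeR's interaction test, always with the lower value in PC3. That is 8.974% of the 78 members, where 10.3% of all 15226 genes had the lower value in PC3 and 20.4% differed in all. The log2 fold change in PC3 minus that in DU145 was -0.373 for MRPS26 (adjusted p = 0.00149), -0.388 for MRPS34 (adjusted p = 0.00438), -0.305 for MRPL18 (adjusted p = 0.0133), -0.488 for MRPS6 (adjusted p = 0.0353), -0.181 for MRPL37 (adjusted p = 0.0397), -0.242 for MRPL42 (adjusted p = 0.0443) and -0.182 for MRPL15 (adjusted p = 0.0479). MRPS26 and MRPS34 were called under all 19 alternatives, and MRPL18 under all but the one without DU145 vehicle replicate 3 (adjusted p = 0.0629). MRPS6 was not called under 8 of the 19, MRPL37 under 10, and MRPL42 and MRPL15 under 15 each.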

How the results depend on the processing

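No pairing by replicate number was visible: deviations of same-numbered vehicle and pentamidine samples correlated at -0.121 to 0.039, and not every sample correlated best with its own number. With 3 samples in a group this cannot show whether a shared number marks a shared culture or batch. With the replicate block, PC3 had 4 members higher and 20 lower with 1 large subunit gene higher, DU145 had 9 higher and 16 lower, and the interaction had 4. Of all genes, 20.3% were then higher and 20.1% lower in PC3, 17% and 16.5% in DU145, and 18.4% differed in the interaction.

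None of the members named by the rule for a comparison changed direction under these alternatives. In PC3, large subunit genes higher numbered 1 with library size alone and with DESeq2 (20.2% and 8.38% of all genes higher). At an adjusted p below 0.01, PC3 had 3 members higher, 1 of them large, and 2 small subunit genes lower. The share of all genes at 0.01 was not counted for any comparison. The counts at 0.01 here and below therefore cannot show whether members kept their calls more or less often than other genes. At the study's threshold all counts were 0 in both lines, and between untreated lines 0 members were higher and 3 lower. In DU145, library size alone gave 8 lower (11.5% of all genes), 7 large and 1 small, with medians of 0.001491 and 0.0449. DESeq2 gave 10 lower, 8 of them large, and 2 large higher (6.3% of all genes lower and 5.07% higher). An adjusted p below 0.01 gave 8 lower, 7 large and 1 small, and 2 large higher. A fit of all 12 samples gave 5 higher and 10 lower in DU145, 2 and 9 for the large and 3 and 1 for the small subunit, and 27 lower in PC3. In that fit 12.5% of all genes were higher and 12.6% lower in DU145, and 22.2% were lower in PC3. With under 10% of exon length shared, 1 small subunit gene was lower in DU145 and 12 members were lower between untreated lines. Interactions numbered 4 with RLE (20.4% of all genes), 14 with library size alone (22.3%), 3 with DESeq2 (8.34%) and 2 at 0.01. The cause was not tested.

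With each sample left out, PC3 had 2 to 6 members higher and 13 to 35 lower, large 1 to 3 and 10 to 26 (median -0.1919 to -0.0821), small 1 to 3 and 2 to 9 (median -0.1051 to -0.0418). DU145 had 5 to 10 higher and 12 to 19 lower, large 2 to 5 and 9 to 15 (median -0.059 to -0.02142), small 3 to 5 and 2 to 4 (median -0.03432 to 0.01581). Untreated lines gave 21 to 33 higher and 15 to 22 lower, and interactions ran from 3 to 14. Of all genes, 17.3% to 21.9% were higher and 17.1% to 21.7% lower in PC3 in these fits. In DU145 13.8% to 14.9% were higher and 13.8% to 15.6% lower. Between untreated lines 28.4% to 31.9% were higher and 30.9% to 33.8% lower, and 16.9% to 20.9% differed in the interaction. The highest PC3 lower counts came without PC3 vehicle replicate 1, the 2 higher without PC3 pentamidine replicate 2, and the fewest DU145 lower and higher without DU145 vehicle replicates 2 and 1. In PC3 MRPL45 lost its call under 7 of 14 alternatives. In DU145 MRPL47 lost it under 9 of 14, MRPS15 under 7, MRPL20 under 6, MRPL11, MRPL41 and MRPL49 under 5 and MRPL44 under 4. MRPL23 had too few reads for a test in PC3.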
